A study of Mus musculus with 4 samples.

Results

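The homeostatic microglia genes *P2ry12*, *Fcrls*, *Tmem119*, *Sall1*, *Cx3cr1*, *Gpr34*, *Csf1r*, *Olfml3* and *Siglech* were taken by symbol from the probe annotation, using only probe sets that carry that symbol alone. All 9 were found, with 1 probe set each, among 22180 symbols that have a probe set of their own. Their RNA was followed in mouse cerebral cultures under 4 conditions, namely IFNγ at 250 IU/mL, benztropine at 2.0 μM, both agents together, and control, each for 48 h. The cells were prepared from brain tissue of C3H/He pups aged 3 days, were grown for 8 days as a mixed culture, and were shaken for 12 h so that loosely attached cells could be discarded, and the control cultures passed through these steps too. Each condition was measured on 1 Affymetrix Mouse Gene 2.0 ST array that held RNA mixed from 3 independent cultures, so no spread between cultures can be measured. A difference between 2 arrays is given on the log2 scale with no test, and a difference past 1.5-fold (0.58 on the log2 scale) is counted.

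Microglia are the resident macrophages of the brain. In the healthy brain they carry a set of surface receptors that sense nucleotides, lipids, chemokines and growth factors, together with a nuclear program that sets them apart from macrophages elsewhere, and this set is often read as the homeostatic state. IFNγ, the cytokine of activated T and NK cells, is a classical activator of macrophages. Benztropine blocks muscarinic acetylcholine receptors, histamine H1 receptors and the dopamine transporter.

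The labels call the cells primary astrocytes, and the arrays showed microglial RNA beside astrocyte RNA. Of 12 astrocyte markers, 11 lay above background in the control array, as did 20 of 20 genes shared by macrophages and microglia in general. Background here is the signal under which 95% of 1400 probe sets for olfactory and vomeronasal receptors lay, 6.64 to 6.69 on the log2 scale. In the control array, 7 of 11 oligodendrocyte lineage genes, 4 of 10 neuronal genes, 3 of 8 endothelial genes, 7 of 10 fibroblast and mural cell genes and 0 of 9 lymphocyte genes were above background. Of all 25341 probe sets with a symbol, 14493 were above background in control and 13970 on all 4 arrays. A count near or under that share therefore does not show that a cell type was present. The homeostatic genes were all above background in control, from 6.87 for *Siglech* to 11.65 for *Csf1r*, and 8 of 9 were above it on all 4 arrays. These signals depend on the probes, so the order of genes by signal is not an order of transcript amounts.

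Promoter windows from RefSeq (GRCm38.p6, 250 bases before to 50 after the start) were found for 6 of the 9 genes, namely *P2ry12*, *Fcrls*, *Sall1*, *Cx3cr1*, *Olfml3* and *Siglech*. They were searched on both strands for GAGGAA, the core of sites of the myeloid factor PU.1. Only the first window listed for each gene was searched, and *Sall1* has 3. Of these 6 windows, 2 held GAGGAA, beside 28.3% of 32851 promoter windows. That share counts every window of 27025 genes, so the 2 figures are not on the same footing. The windows of *Fcrls* (chr3:87263475-87263774, minus strand), *P2ry12* (chr3:59262936-59263235, minus strand) and *Cx3cr1* (chr9:120068247-120068546, minus strand) are shown because the RNAs of these receptors differed in their response to IFNγ. Capitals mark a match.
Fcrls: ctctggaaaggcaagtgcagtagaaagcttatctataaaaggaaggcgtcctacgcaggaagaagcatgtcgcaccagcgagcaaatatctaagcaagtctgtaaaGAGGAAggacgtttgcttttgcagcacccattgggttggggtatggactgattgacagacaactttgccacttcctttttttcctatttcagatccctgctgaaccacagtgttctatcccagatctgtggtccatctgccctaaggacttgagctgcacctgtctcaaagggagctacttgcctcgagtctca
P2ry12: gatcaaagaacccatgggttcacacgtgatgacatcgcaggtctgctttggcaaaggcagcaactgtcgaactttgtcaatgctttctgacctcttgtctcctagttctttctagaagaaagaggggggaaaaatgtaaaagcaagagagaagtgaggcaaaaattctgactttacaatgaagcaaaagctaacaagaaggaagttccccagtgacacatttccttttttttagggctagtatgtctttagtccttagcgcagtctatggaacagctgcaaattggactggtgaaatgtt
Cx3cr1: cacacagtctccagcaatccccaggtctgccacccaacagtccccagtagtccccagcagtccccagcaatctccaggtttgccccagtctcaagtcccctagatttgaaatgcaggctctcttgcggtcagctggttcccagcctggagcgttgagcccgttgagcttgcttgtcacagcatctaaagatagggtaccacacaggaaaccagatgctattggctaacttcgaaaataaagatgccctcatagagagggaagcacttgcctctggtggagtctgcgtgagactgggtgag
*Fcrls* held 1 GAGGAA, at position -144 from the start, and *P2ry12* and *Cx3cr1* held none. *Siglech* held GAGGAA on the minus strand at -4 (chr7:55767934-55768233, plus strand). A match is a run of letters and was not tested as a site.

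The set did not move as 1 block when IFNγ was added. *Gpr34* fell and *Fcrls* was lower past 1.5-fold both without and with benztropine, *P2ry12* was lower in both settings by less than 1.5-fold, and no member was higher past 1.5-fold in either. *Tmem119*, *Sall1*, *Cx3cr1* and *Olfml3* differed by 0.16 or less on the log2 scale in each pair, and *Csf1r* was slightly higher in both. Past 1.5-fold, 2 of 9 members were lower with IFNγ than in control, beside 0.28% of all 25341 probe sets with a symbol, and 2 of 9 were lower with both agents than with benztropine alone, beside 0.347%. The same genes made up both counts, and 0.0434% of the probe sets with a symbol were lower in both pairs. On the other side, 1.55% of the probe sets were higher past 1.5-fold with IFNγ than in control and 1.4% were higher with both agents than with benztropine, against 0 of 9 members. At such shares a count of 0 is not particular to the members. Among the 15408 probe sets above background on at least 1 array, a comparison added after seeing the data, 0.136% were lower with IFNγ than in control, 0.24% were lower with both agents than with benztropine, and 0.0584% were lower in both pairs. The members were chosen with results of these data known, so these counts are a description.

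**Figure D1:**
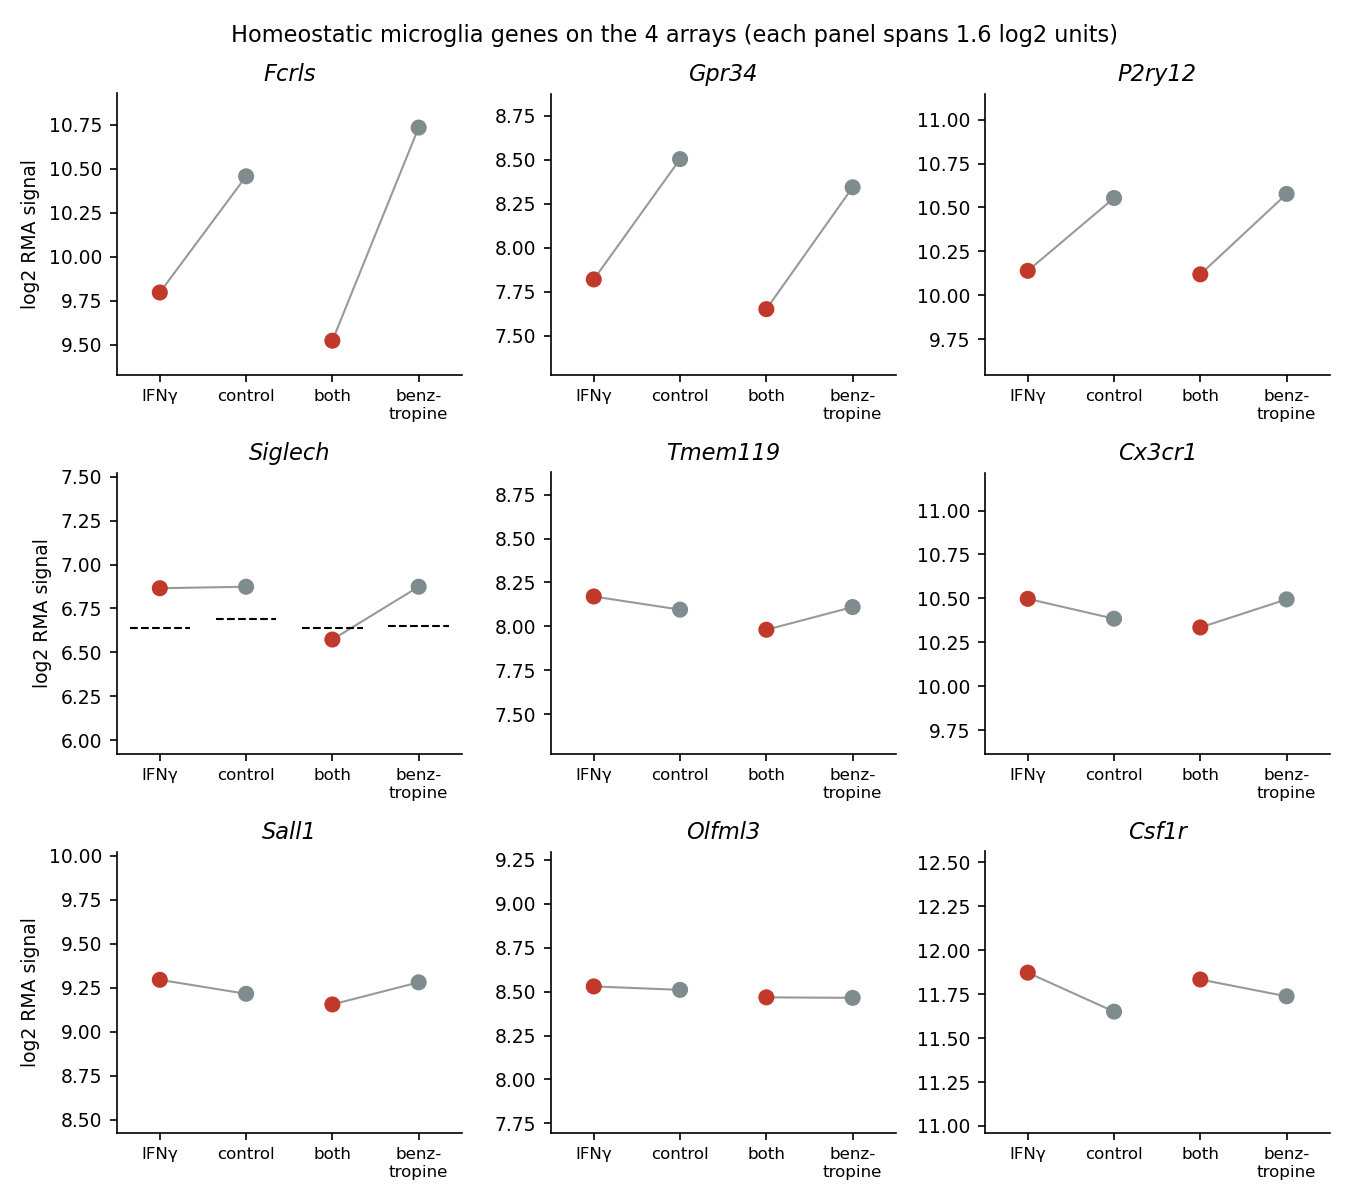
Log2 RMA signal (vertical axis) of each gene on the 4 arrays, with a point per array, the arrays with IFNγ in red, those without it in gray, and lines that join the arrays that differ by IFNγ. In each setting *Fcrls*, *Gpr34* and *P2ry12* lay lower with IFNγ, while *Tmem119*, *Cx3cr1*, *Sall1* and *Olfml3* stayed within 0.16 of the paired array; dashed lines in the *Siglech* panel mark background.

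A limma fit over the 4 arrays, with additive terms for IFNγ and benztropine, gave each gene an error. With 1 residual degree of freedom, error of the arrays and any interaction of the agents cannot be told apart in its residual. By this fit with Benjamini-Hochberg adjustment over all probe sets with a symbol, 1 of 9 members (*Gpr34*) passed an adjusted p of 0.05 as lower with IFNγ, beside 0.0434% of the probe sets, and 0 were higher, beside 0.983%. At an unadjusted limma p under 0.05, 3 members were lower (*Gpr34*, *Fcrls* and *P2ry12*), beside 6.42% of the probe sets, and 0 were higher, beside 5.96%. Both arrays with IFNγ lay below both arrays without it for 4 of 9 members, beside 24.3% of the probe sets, and above both for 1 of 9 (*Csf1r*), beside 17.2%. The 4 were *Gpr34*, *Fcrls*, *P2ry12* and *Siglech*, the last by only 0.0085 on the log2 scale and close to background.

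*Gpr34* encodes a G protein-coupled receptor for lysophosphatidylserine. Its log2 signal was 7.82 with IFNγ, against 8.50 in control, and 7.65 with both agents, against 8.34 with benztropine. Both arrays with IFNγ were lower than both without it, and the 2 differences were nearly equal at -0.68 and -0.69, so that 62.2% of the control signal and 61.8% of the benztropine signal were left (1.61- and 1.62-fold lower). The limma effect of IFNγ was -0.69 ± 0.0703 (SE) with a 95% confidence interval of -0.87 to -0.51 and an adjusted p of 0.0305. Over its 8 alternatives the limma adjusted p ran from 0.000311 to 0.267. The lowest came from arrays centered on the genes shared by macrophages and microglia, a fit whose p-values are not comparable with the others. The next lowest was 0.00168, with a variance trend. The call was lost, at an adjusted p of 0.267, when the probe sets without a symbol were kept in the adjustment. Under that alternative, of 22 limma calls for IFNγ among the genes of all lists only 2, *Cxcl9* and *Igtp*, kept an adjusted p under 0.05. The call of each other gene named below was therefore lost too. In order of the mean IFNγ difference, *Gpr34* was the 12th lowest of the 25341 probe sets.

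*Fcrls* encodes an Fc receptor-like protein with a scavenger receptor domain, made at high levels by mouse microglia. Its log2 signal was 9.80 with IFNγ, against 10.46 in control, and 9.52 with both agents, against 10.73 with benztropine. The groups did not overlap, the lowest value was with both agents and the highest with benztropine alone, so the difference was larger in the presence of benztropine (-1.21, 43.2% of the signal left, 2.32-fold lower) than in its absence (-0.66, 63.2% left, 1.58-fold lower). The gap between these differences was -0.55, outside the middle 95% of the same quantity over the probe sets above background (-0.39 to 0.30), and with 1 array per condition it could not be tested. The limma effect of IFNγ was -0.94 ± 0.144 (SE), with an interval of -1.31 to -0.56 and an adjusted p of 0.104. *Fcrls* was the 5th lowest of the 25341 probe sets by its mean IFNγ difference and had the largest SE of the 9 members, 0.144, against 0.0703 to 0.0969 in the others.

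*P2ry12* encodes the Gi-coupled ADP receptor that steers microglial processes toward damaged tissue. Its log2 signal was 10.14 with IFNγ, against 10.55 in control, and 10.12 with both agents, against 10.58 with benztropine. The arrays with IFNγ lay close together, as did those without it, and the differences of -0.41 and -0.46 left 75.0% of the control signal and 72.8% of the benztropine signal. Both differences lay below the middle 95% of all probe sets above background in the same pair, whose lower ends were -0.31 and -0.35. The limma effect was -0.44 ± 0.071 (SE), with an interval of -0.62 to -0.25 and an adjusted p of 0.118.

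*Cx3cr1*, the receptor for the neuronal chemokine fractalkine, showed no steady difference. Its log2 signal was 10.50 with IFNγ, against 10.38 in control, and 10.33 with both agents, against 10.49 with benztropine. The differences were 0.11 and -0.16, of opposite sign, and the limma effect of IFNγ was -0.02, with an interval of -0.27 to 0.22. *Csf1r*, the receptor tyrosine kinase for CSF1 and IL-34 on which microglia depend for survival, leaned the other way. It stood at 11.87 with IFNγ, against 11.65 in control, and at 11.83 with both agents, against 11.74 with benztropine. It was the only member for which both arrays with IFNγ lay above both arrays without it, by differences of 0.22 and 0.10, with a limma effect of 0.16, an interval of -0.04 to 0.36 and an adjusted p of 0.482.

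*Sall1* encodes the zinc finger transcription factor that maintains microglial identity and is also made in neural progenitors. It stood at 9.30 with IFNγ, against 9.22 in control, and at 9.16 with both agents, against 9.28 with benztropine. *Tmem119*, a transmembrane protein widely used to tell microglia from infiltrating macrophages, stood at 8.17 with IFNγ, against 8.10 in control, and at 7.98 with both agents, against 8.11 with benztropine. *Olfml3*, a secreted olfactomedin-like protein, stood at 8.53 with IFNγ, against 8.51 in control, and at 8.47 with both agents, against 8.46 with benztropine. The groups overlapped for these genes. Their limma effects of IFNγ were -0.02, -0.03 and 0.01, with intervals of -0.24 to 0.20 for *Sall1*, -0.25 to 0.19 for *Tmem119* and -0.17 to 0.19 for *Olfml3*, each of which lies inside the 1.5-fold bounds. With 1 array of pooled RNA per condition, these intervals do not measure the spread between cultures, so they do not establish that the genes are stable. Bulk signals of a mixed culture also do not show which cells made these RNAs.

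*Siglech*, a lectin-family receptor of microglia and plasmacytoid dendritic cells, was the member closest to background. Its log2 signal was 6.87 with IFNγ, against 6.87 in control, and 6.57 with both agents, against 6.87 with benztropine. Only the array with both agents stood apart, and its signal was below background there. None of the 4 values passed the stricter background, the 99th percentile (7.42 to 7.62), so a difference for *Siglech* was hardly measurable. The limma effect of IFNγ was -0.15, with an interval of -0.41 to 0.10.

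**Figure D2:**
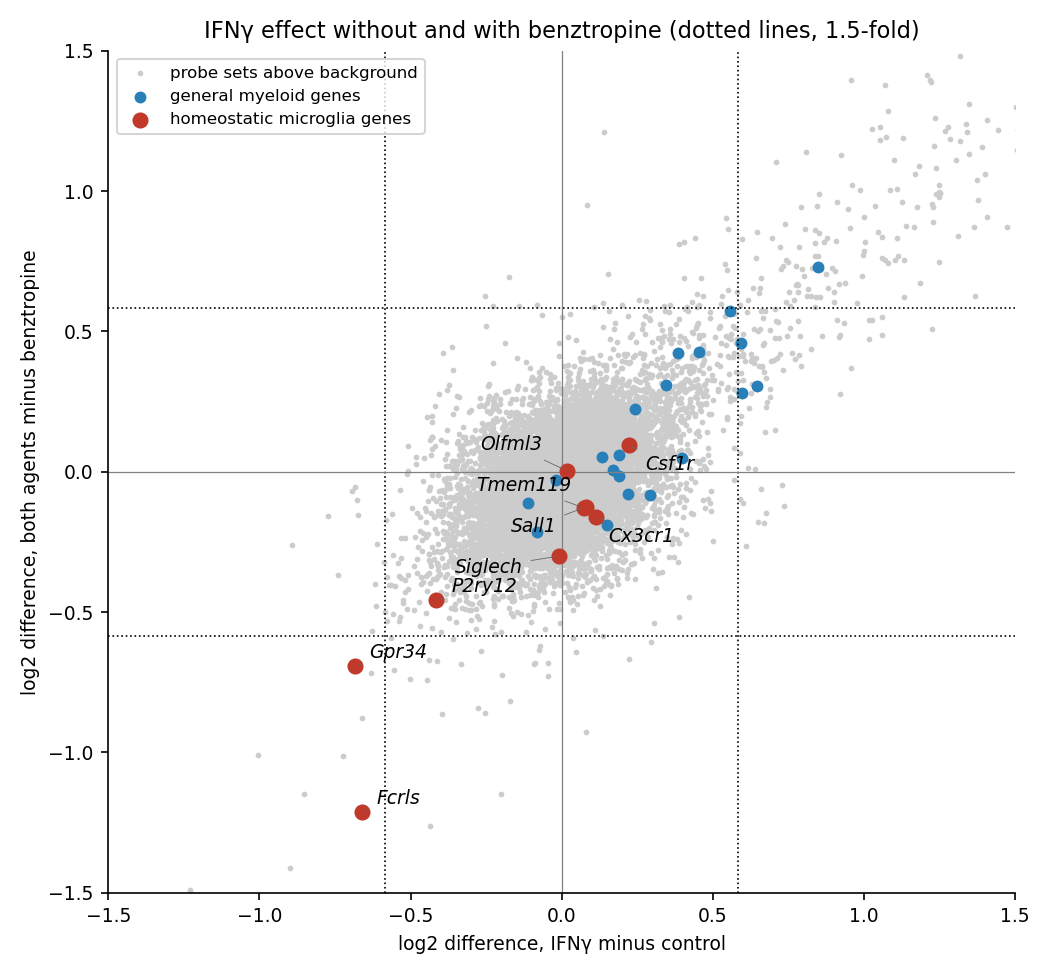
Log2 difference of IFNγ minus control (horizontal axis) against both agents minus benztropine (vertical axis), with a point per probe set above background on at least 1 array (gray), per general myeloid gene (blue) and per homeostatic gene (red), and dotted lines at 1.5-fold. *Gpr34* (-0.68, -0.69) and *Fcrls* (-0.66, -1.21) lie past both dotted lines at the lower left and *P2ry12* (-0.41, -0.46) short of them, while probe sets with larger differences than 1.5 fall outside the frame.

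No member passed 1.5-fold in either direction with benztropine against control or with both agents against IFNγ alone, beside 0.466% and 0.525% of the probe sets. With shares this low, a count of 0 does not set the members apart from other genes. The comparisons of IFNγ and of benztropine against control share the control array, so their values are not independent. The largest differences were those of *Fcrls*, which was 0.28 higher with benztropine than in control and 0.27 lower with both agents than with IFNγ (-0.27), and of *Siglech* (0.00 and -0.29). *Gpr34* was lower in both settings (-0.16 and -0.17), with a limma effect of benztropine of -0.16 and an interval of -0.35 to 0.02. By limma, 0 members and 0% of the probe sets were called for benztropine at an adjusted p under 0.05, and 0 members and 1857 probe sets (7.33%) had an unadjusted p under 0.05. Over the probe sets above background, the SD of the log2 difference was 0.134 and 0.137 in the benztropine pairs and 0.294 and 0.285 in the IFNγ pairs.

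**Figure D3:**
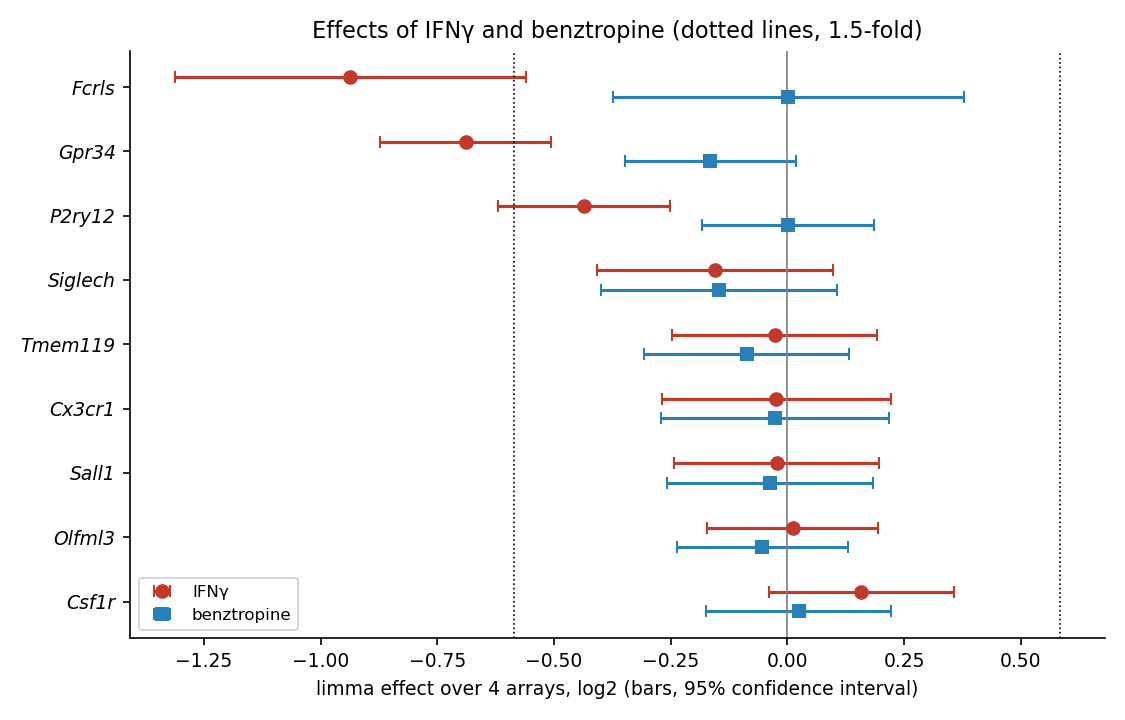
Effects of IFNγ (red circles) and benztropine (blue squares) on the log2 signal of each gene (horizontal axis) from the additive limma fit over 4 arrays, with bars for the 95% confidence interval and dotted lines at 1.5-fold. The intervals for IFNγ lie below 0 for *Fcrls*, *Gpr34* and *P2ry12* and span 0 for the other genes, and every interval for benztropine spans 0.

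In these bulk samples, fewer microglia and less RNA per cell cannot be told apart, so the genes that all macrophages share are given beside the homeostatic set. Of 20 general myeloid genes, all above background on all 4 arrays, 13 were higher with IFNγ in both pairs and 3 were lower in both. Of all 25341 probe sets with a symbol, 6208 were higher in both pairs and 8604 lower in both. The medians of the general myeloid genes were 0.27 and 0.06, beside 0.02 and -0.16 for the 9 homeostatic genes and -0.00 and -0.03 for all probe sets with a symbol. Past 1.5-fold, 4 of the general myeloid genes were higher and 0 lower with IFNγ than in control, beside 1.55% and 0.28% of the probe sets. With both agents, 1 was higher and 0 lower than with benztropine, beside 1.4% and 0.347%. *Cybb*, the catalytic subunit of the phagocyte NADPH oxidase, rose 1.80-fold without and 1.66-fold with benztropine (limma adjusted p 0.025). *Aif1*, which encodes the microglial marker Iba1, differed by 0.56 and 0.57 (limma adjusted p 0.056), and *Ptprc* (CD45) by 0.65 and 0.31. *Cd68*, a lysosomal protein of macrophages, differed by -0.11 in each pair, and *Itgam* (CD11b) by 0.15 and -0.19. The median signal of the list was 10.43 with IFNγ, 10.25 with both agents, 10.21 with benztropine and 10.06 in control, and the part of this shift in the differences of the homeostatic genes was not tested. When each array was centered on this list's median, which put the median IFNγ effect of all probe sets with a symbol at -0.22, *Gpr34* was at -1.06 and -0.73, *P2ry12* at -0.79 and -0.49 and *Fcrls* at -1.04 and -1.25. The list holds genes that were themselves higher with IFNγ, such as *Cybb*, and its median differed with the treatment. Centering on it is therefore no correction for the amount of myeloid cells. The classical targets of IFNγ checked the treatment, since 12 of 13 were higher past 1.5-fold in both pairs and 12 were called by limma. *Iigp1*, an immunity-related GTPase, stood at 12.16 with IFNγ, against 7.02 in control, and at 12.14 with both agents, against 7.89 with benztropine.

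Genes that supply or maintain the homeostatic program differed less than *Gpr34* and *Fcrls*, and several differed more than *Tmem119*, *Sall1*, *Cx3cr1* and *Olfml3*. Of 18 measured transcription factors, ligands and receptors of the TGF-β, CSF1 receptor and fractalkine pathways, 0 passed 1.5-fold in either direction in either IFNγ pair. Over all probe sets with a symbol, 0.28% were lower and 1.55% higher with IFNγ than in control, and 0.347% and 1.4% with both agents than with benztropine. A count of 0 is therefore not particular to these genes. By limma, 1 was called, as higher, beside 0.983% of the probe sets. That gene was *Irf8*, a factor needed by microglia and itself induced by IFNγ, which was higher by 0.39 and 0.41 as the mean of its 2 probe sets (the lower limma adjusted p 0.048). *Spi1*, which encodes PU.1, differed by 0.33 and 0.37. Among the ligands, *Csf1* differed by 0.18 and 0.25, *Il34* by -0.10 and 0.05, *Cx3cl1* (fractalkine) by 0.42 and 0.21, and *Tgfb1* by -0.01 and 0.16. The receptor genes *Tgfbr1* and *Tgfbr2*, which carry the TGF-β signal that microglia need for this program, differed by 0.17 and 0.07 and by -0.10 and -0.27. *Smad3*, *Runx1* and *Mef2c* stayed between -0.14 and 0.27.

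Among 27 other genes enriched in microglia, 1 was lower and 3 were higher past 1.5-fold with IFNγ than in control, beside 0.28% and 1.55% of all probe sets. With both agents, 1 was lower and 2 were higher than with benztropine, beside 0.347% and 1.4%. *Ltc4s*, which makes leukotriene C4, fell by 0.63 and 0.72 (limma adjusted p 0.037), close to *Gpr34*. The log2 signal of *Ltc4s* was 7.36 with IFNγ, against 7.99 in control, and 7.63 with both agents, against 8.34 with benztropine. *Entpd1* (CD39), the ectoenzyme that degrades extracellular ATP and ADP and so sets the supply of the *P2ry12* ligand, rose 2.55-fold and 2.19-fold (adjusted p 0.009). *Il10ra*, the IL-10 receptor chain, rose 1.87-fold and 1.64-fold (adjusted p 0.030), and *C1qb*, a chain of complement C1q, was 1.56- and 1.33-fold higher (adjusted p 0.129). Genes that microglia turn on in degenerating tissue passed 1.5-fold in 0 of 20 cases in either pair, a count that the low shares over all probe sets make unremarkable. Within that list *Clec7a* differed by 0.43 and 0.49, *Lpl* by 0.32 and 0.50, *Ch25h* by -0.39 and -0.31 and *Ank* by -0.29 and -0.35.

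**Figure D4:**
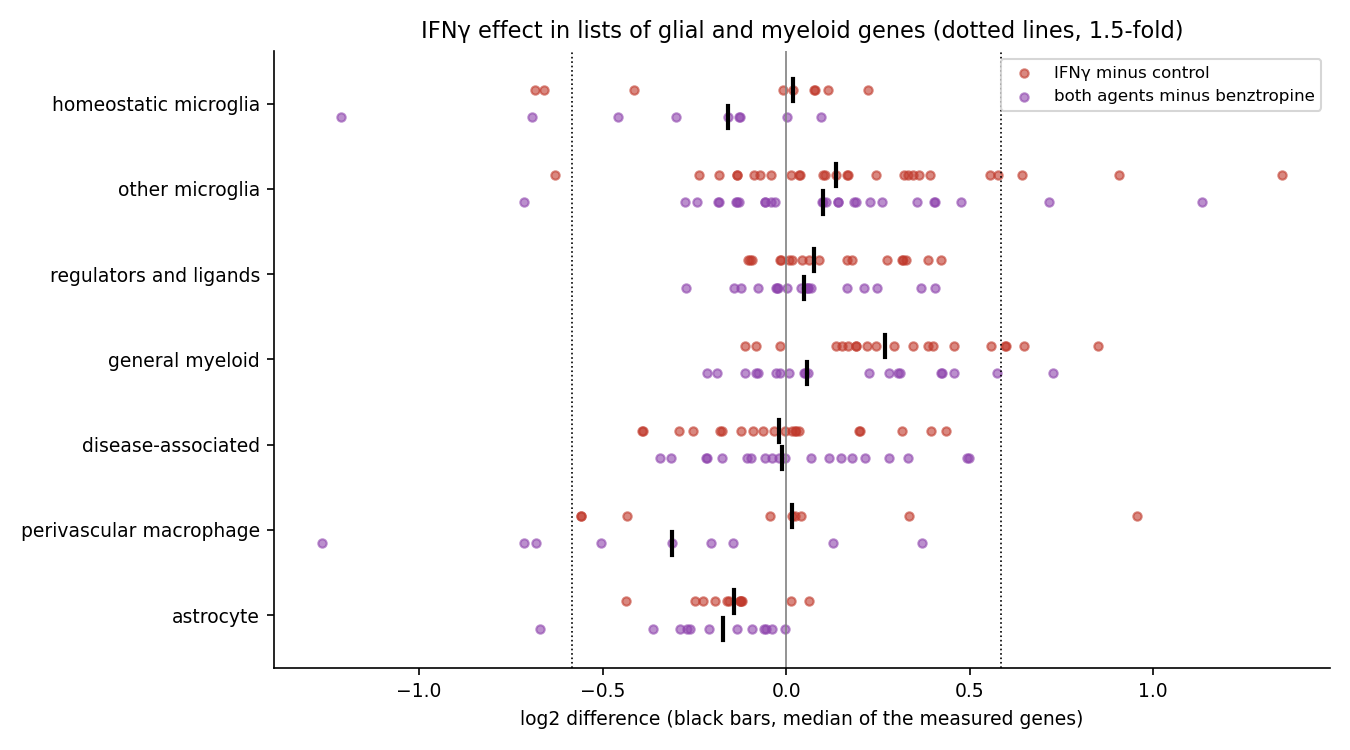
Log2 differences (horizontal axis) of IFNγ minus control (red) and of both agents minus benztropine (purple) for the measured genes of 7 lists, with a point per gene, black bars for the medians and dotted lines at 1.5-fold. The medians are 0.02 and -0.16 for the homeostatic genes, 0.14 and 0.10 for the other microglial genes, 0.27 and 0.06 for the general myeloid genes and -0.14 and -0.17 for the astrocyte genes.

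Macrophages at the borders of the brain could contribute to these cultures, so their genes were counted too. Of 9 measured perivascular macrophage genes, 0 were lower and 1 was higher past 1.5-fold with IFNγ than in control, and 3 were lower and 0 higher with both agents than with benztropine. Over all probe sets with a symbol, 0.28% were lower and 1.55% higher in the first pair, and 0.347% and 1.4% in the second. The 3 lower genes were *F13a1*, *Mrc1* (-0.04 without and -0.68 with benztropine) and *Pf4* (named after its value was seen), which was below background on all 4 arrays. *F13a1*, the coagulation factor XIII A chain, stood at 8.09 with IFNγ, against 8.52 in control, and at 7.62 with both agents, against 8.88 with benztropine, a pattern like that of *Fcrls*. *Lyve1* differed by -0.56 and -0.51 at signals near background, and *Siglec1*, an interferon-inducible lectin, by 0.96 and 0.37. Of 11 monocyte and neutrophil genes, 0 were lower, and 1 was higher past 1.5-fold with IFNγ and 2 were higher with both agents. The one with the largest difference, *Ly6c2*, a surface protein of inflammatory monocytes, stood at 7.88 with IFNγ, against 5.51 in control, and at 8.30 with both agents, against 5.66 with benztropine, and its values without IFNγ were below background. The part of such cells in the *Fcrls* difference was not tested. Of 12 astrocyte genes, 10 were lower in both IFNγ pairs, beside 8604 of all 25341 probe sets, and among the 10 was *Gjb6* (named after its value was seen), below background on all 4 arrays. Past 1.5-fold, 0 were lower with IFNγ and 1, *S100b*, with both agents. *S100b* was below background on both arrays with IFNγ (6.59, and 6.34 with both agents). The oligodendrocyte, endothelial and lymphocyte lists had 0 genes past 1.5-fold in either pair, the neuronal list had 1, *Nefl* (named after its value was seen), which was below background and lower with both agents than with benztropine, and the fibroblast and mural cell list had 1, *Dcn*, which fell in both pairs (-0.90 and -1.41, limma adjusted p 0.048) and was below background with IFNγ alone.

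Of 25 measured relatives of the members in the same gene families, 17 were above background on at least 1 array, beside 60.8% of all probe sets with a symbol. Past 1.5-fold, 0 were lower in either pair, beside 0.28% of all probe sets with IFNγ and 0.347% with both agents. With shares this low, a count of 0 does not set the relatives apart from other genes. Higher past 1.5-fold were 3 with IFNγ than in control, beside 1.55%, and 2 with both agents than with benztropine, beside 1.4%. *P2ry13*, an ADP receptor and the next protein-coding gene to *P2ry12* on chromosome 3, is not among these 25. It was counted with the other genes enriched in microglia, where its difference was not among the largest. *P2ry13* stood at 10.14 with IFNγ, against 10.10 in control, and at 10.14 with both agents, against 10.27 with benztropine. *P2ry14*, the UDP-glucose receptor in the same gene cluster, stood at 6.94 with IFNγ, against 5.54 in control, and at 6.81 with both agents, against 5.75 with benztropine, with values below background without IFNγ and a limma adjusted p of 0.018. *Siglece*, an inhibitory receptor related to *Siglech*, rose by 0.66 and 0.65 (limma adjusted p 0.036). In the annotation *P2ry12* overlaps *Med12l* and *Gpr34* overlaps *Cask*, genes looked up after the values were seen. *Med12l* stood at 7.81 with IFNγ, against 8.13 in control, and at 7.82 with both agents, against 8.03 with benztropine, and *Cask* at 10.01 with IFNγ, against 10.02 in control, and at 9.91 with both agents, against 10.20 with benztropine. Whether transcripts of *Med12l* or *Cask* bind to the probes of these members was not tested.

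The genes whose 4 log2 signals, centered on their mean, lay closest to those of *Fcrls* among 13056 probe sets were *F13a1* (distance 0.173), *Ctla2a* (0.177), *Car3* (0.271), *Nav3* (0.283) and *Gpr183* (0.285). The last, a receptor for oxysterols that guides immune cells, stood at 8.38 with IFNγ, against 9.23 in control, and at 7.98 with both agents, against 9.13 with benztropine. *Nav3*, a neuron navigator protein, stood at 8.70 with IFNγ, against 9.70 in control, and at 8.69 with both agents, against 9.70 with benztropine. For *Csf1r*, at the other end of the set, the closest were *Mrps18c*, *4833422C13Rik*, *Arhgef7*, *Spcs3* and *Ubash3b*, at distances of 0.00399 to 0.0157. Likeness over 4 values is a description.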

How the data were processed

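Each of 4 conditions of mouse cerebral cultures had 1 array (Mouse Gene 2.0 ST), made from 500 ng of total RNA. The authors deposited log2 signals, computed by RMA in Affymetrix Expression Console, and they were used unchanged. Of 41345 probe sets, 23521 carry 1 symbol in the platform annotation, 1820 several and 16004 none. Genes were named only from probe sets with 1 symbol, and their several probe sets were averaged. The 25341 with any symbol entered the fits. The genome build of the array is not given in the sources used here.

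Pairs of arrays were compared as log2 differences with the 1.5-fold threshold of the methods. limma 3.58.1 (R 4.3.3) fitted additive terms for IFNγ and benztropine, with 1 residual degree of freedom, to which the shared prior added 3.79. P-values were adjusted by Benjamini-Hochberg at 0.05. The code was tested on simulated data. The number of arrays limits the precision. The members and the 15 gene lists were chosen with earlier results of these data known. Named from each list were up to 4 genes with the largest mean IFNγ difference above background, any general myeloid or regulator gene, and the 5 genes most like the lowest and highest member. Gene order came from RefSeq (GRCm38.p6). Promoters were also searched for other motifs, which are not reported here. Python 3.11.15 was used with pandas 2.3.3. Alternatives were thresholds of 1.3- and 2-fold, quantile, loess and myeloid-centered scales, other probe set filters, the highest probe set, the 99th percentile as background, and for limma an adjusted p of 0.10, robust variances and a variance trend.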

Additional observations from a re-analysis of the deposited data

Results flagged for a closer look

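In 6 of the 9 genes the sign of a difference turned with the other agent, and none of these turns could be tested with 1 array per condition. Turns of the IFNγ sign were common. Of all 25341 probe sets with a symbol, the IFNγ difference was below 0 in both pairs for 8604 and above 0 in both for 6208. Of the 9 members, 4 were below 0 in both pairs and 2 above. The share with a turn for benztropine was not counted. The sign of the IFNγ difference turned for *Tmem119* (0.07 without and -0.13 with benztropine, a gap of -0.20), *Sall1* (0.08 and -0.13, a gap of -0.21) and *Cx3cr1* (0.11 and -0.16, a gap of -0.27). The sign of the benztropine difference turned for *Tmem119*, *Sall1* and *Cx3cr1* by the same gaps, for *Fcrls* (-0.27 with IFNγ and 0.28 without it, a gap of -0.55), for *Csf1r* (-0.04 and 0.09, a gap of -0.13) and for *P2ry12* (-0.02 and 0.02, a gap of -0.043). Over the probe sets above background the gap had a median of -0.04 and a middle 95% of -0.39 to 0.30, and only *Fcrls* lay outside it.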

How the results depend on the processing

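No paired analysis was possible because each condition has 1 array. At a 2-fold threshold, 0 members were lower with IFNγ than in control, 1 (*Fcrls*) was lower with both agents than with benztropine, and 0 were lower in both pairs. At 1.3-fold these counts were 3 each, with *P2ry12* added, and myeloid centering also put 3 members lower past 1.5-fold with IFNγ than in control. The count of members that limma called lower, 1 on the signals as deposited, was 2 after quantile normalization, 2 with arrays centered on the general myeloid genes, 0 with probe sets without a symbol kept, 3 with only probe sets above background and 3 with a variance trend, and stayed at 1 under the other alternatives run. The probe sets called lower numbered 11 on the signals as deposited and 26, 106, 0 of 41345, 129 of 15408 and 181 under these alternatives, taken in the same order. *Fcrls* passed at adjusted p of 0.045, 2.99e-07, 0.016 and 0.0055 under quantile normalization, myeloid centering, the filter on background and the variance trend, and *P2ry12* at 0.021 and 0.0031 under the last pair. The myeloid-centered fit gave every probe set the same SE of 0.187, its prior degrees of freedom being infinite, so its p-values are not comparable with the others. The IFNγ effect changed sign for *Cx3cr1* under loess (0.0010), for *Csf1r* under myeloid centering (-0.047) and for *Olfml3* under quantile normalization (-0.0033) and myeloid centering (-0.19). For single genes, 61 of 72 alternative values kept their direction and side of the threshold. Of the counts, 65 of 73 alternative values stayed within 1.5 times the value reported. Both totals include values that could not change. Every member has 1 probe set, so taking the highest probe set of each gene repeated the reported counts. For single genes, the probe set filters, robust variances, variance trend and looser cut on adjusted p left the effect itself unchanged. Under these only the side of the threshold could move, so the totals are no measure of stability.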
